A study of Rattus norvegicus with 20 samples.

Results

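Transcripts of 10 genes that make, sense and remove the second messenger cAMP were followed in cortical collecting ducts of DDAVP-infused rats, with and without an added water load. The genes were Gnas, Adcy3, Adcy6, Prkaca, Prkacb, Prkar1a, Prkar2a, Pde3b, Pde4d and Akap1, picked by the symbol column of the deposited count table. They are 10 of the 32545 genes in that table, and all 10 passed the filter on low counts that left 14472 genes for testing. Gnas carried 2 Ensembl identifiers, and the one with 550093 counts over all libraries was used in place of the other, which had 906.

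Microdissected cortical collecting ducts came from male Sprague-Dawley rats, 5 weeks old, and each library was 1 rat. Gelled food gave the water-loaded rats 50 mL of water per day and the control rats 25 mL. Every rat of both treatments carried a subcutaneous minipump that delivered the vasopressin V2 receptor agonist DDAVP at 5 ng/hr. Day 1 had 3 water-loaded and 3 control rats, day 2 had 4 of each and day 4 had 3 of each. These days are those of the sample titles, while the treatment protocol speaks of dissection after 4 days and names no earlier day. The water load under fixed DDAVP is the setting of vasopressin escape, in which the kidney regains the ability to excrete water although the hormone signal persists, and the comparison asks whether transcripts of the cAMP route differ there.

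In the principal cells of the collecting duct, vasopressin binds the V2 receptor, which activates the stimulatory G protein Gs. Gs turns on adenylyl cyclase, and the cAMP it makes binds the regulatory subunits of protein kinase A and frees the catalytic subunits. The kinase then drives insertion of the water channel aquaporin 2 into the apical membrane and transcription of its gene, while phosphodiesterases degrade cAMP and anchoring proteins hold the kinase at particular sites.

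Libraries held between 33.5 and 74.9 M counts on genes (median 55.7 M), with 12665 to 15266 genes detected, and a floor of 3 counts was worth 0.0414 to 0.0926 TMM-normalised CPM (counts per M counts on genes). All 9 principal cell markers were detected in all 6 groups, and no podocyte marker was detected outside the day 2 control group. Libraries of 2 rats stood apart. Day 1 control 1 had the smallest scaling factor (0.645). It also had 1600 CPM of 7 fibroblast and pericyte markers, which summed to 6.61 to 123 CPM in the other libraries. Day 1 water-loaded 2 had the next smallest factor (0.686) and 5840 CPM of 8 proximal tubule markers. Those summed to 29.1 to 2240 CPM in the other libraries. The known response to the water load was present. Aqp2, the apical water channel, averaged 13360 ± 3744 CPM in water-loaded rats and 28830 ± 11930 CPM in controls (SD, n = 10 each). The fitted difference over the average of days was -1.07 on the log2 scale (SE 0.19, adjusted p = 0.0262 by edgeR). Its adjusted p passed 0.05 in 23 of 34 alternatives. It missed with the replicate number as a block (0.185) and with a covariate for the detected genes (0.0935). It also missed when day 1 control 1 (0.0691) or water-loaded 3 (0.0535), day 2 control 3 (0.0531) or water-loaded 1 (0.0642) or 2 (0.0502), or day 4 control 1 (0.0642) or 2 (0.0668) or water-loaded 1 (0.0729) or 2 (0.091) was left out. Aqp3, the basolateral channel, averaged 1052 ± 380.1 CPM in water-loaded rats and 3399 ± 1833 CPM in controls (log2 difference -1.59, SE 0.21, adjusted p = 0.00229) and passed in all 34.

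None of the 10 cAMP genes passed edgeR's test in any comparison. With edgeR's quasi-likelihood test at an adjusted p of 0.05, 0 of 10 were called at day 1, day 2 or day 4, where 0% of the 14472 genes were called. Over the average of the 3 days 0 of 10 were called, against 23 genes or 0.159% of all tested, or 5 genes with the replicate number as a block. At an unadjusted p under 0.05 the members numbered 2 at day 1, where 15.6% of all genes passed, 1 at day 2 (5.23%), 0 at day 4 (7.22%) and 1 when the days were averaged (13.5%). DESeq2 called 1 member at day 1, Adcy3, where it called 8.28% of all genes given an adjusted p, and 1 among the days of control rats, Akap1, where it called 12.5%. Both counts, 1 of 10, are near those shares.

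Over the average of days 3 members were higher and 7 lower with the water load. Their median log2 difference was -0.26, against 0.01 for all genes tested. The 3 higher included Pde4d at 0.17, which was lower at days 2 and 4 (-0.45 and -0.95). Its day 1 fit, also counted as higher below, rested on 4 counts in water-loaded rats and 1 in control rats. At day 1 there were 5 higher and 5 lower with a median of -0.01. At day 2 there were 2 higher and 8 lower with a median of -0.41, where all genes stood at -0.05, and at day 4 there were 3 higher and 7 lower with a median of -0.44, where all genes stood at 0. With scaling by library size only, the median of all genes moved to 0.14 over the average and 0.23 at day 4, and that of the members to -0.1 and -0.14. In tissue samples of this kind, fewer cells of a type and less RNA per cell cannot be told apart.

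**Figure D1:**
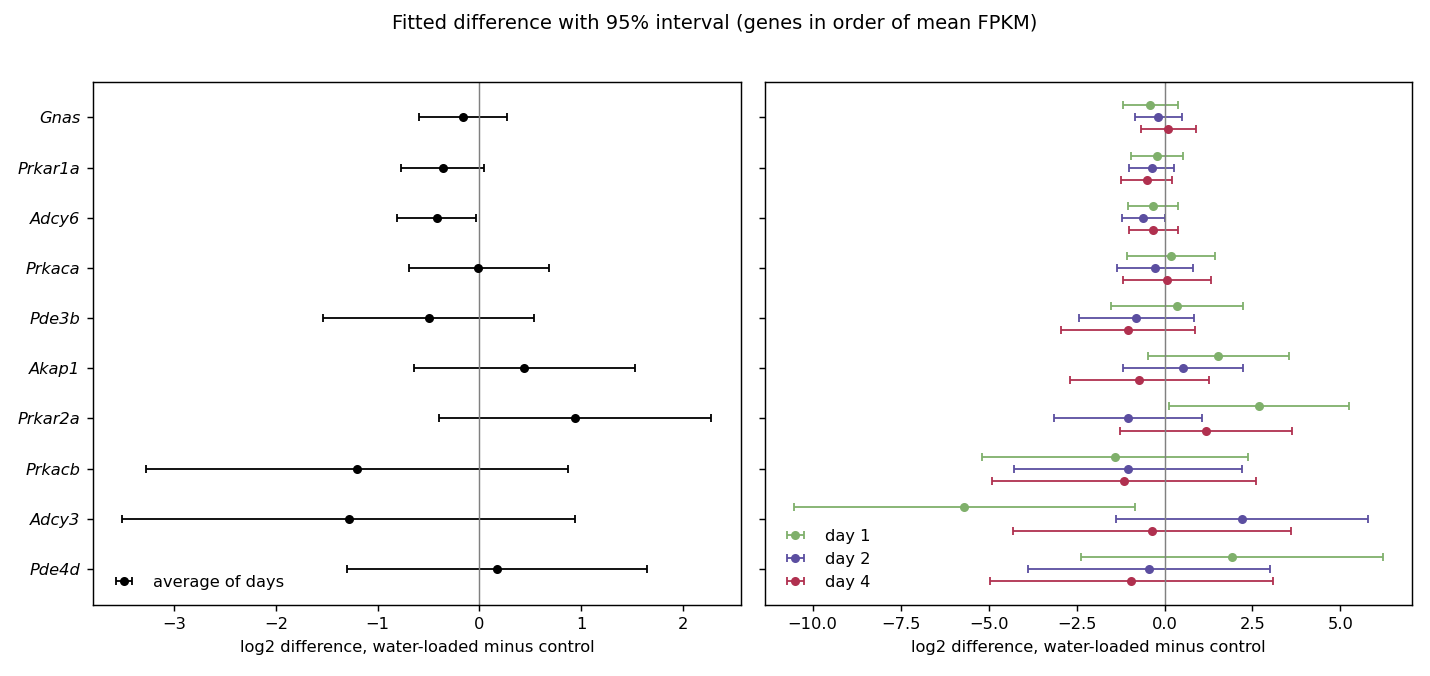
Fitted log2 difference, water-loaded minus control, with its 95% interval for each of the 10 genes, ordered from the highest mean FPKM at the top; the left panel shows the average of days and the right panel each day. Over the average, Adcy6 at -0.42 is the gene whose interval (-0.81 to -0.03) lies wholly below 0. Intervals widen from Gnas at the top to the low genes at the bottom. The day 1 point of Pde4d rests on 4 counts in water-loaded rats and 1 in control rats.

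Adcy6 (ENSRNOG00000054757), the calcium-inhibited adenylyl cyclase on which vasopressin-stimulated cAMP formation depends in mouse collecting duct, was lower in water-loaded rats at all 3 days. Water-loaded rats had 295, 399 and 145 CPM at day 1, against 398, 368 and 289 CPM in control rats. At day 2 water-loaded rats had 171, 215, 329 and 343 CPM and control rats 256, 449, 431 and 484 CPM. At day 4 the values were 470, 418 and 498 CPM in water-loaded rats and 556, 601 and 568 CPM in control rats. The groups overlapped at days 1 and 2, and at day 4 all 3 water-loaded rats were under the lowest control rat, as in 6.73% of all genes tested. In deposited FPKM, which carry no TMM factor, the day 4 groups did overlap, at 97.2, 86.8 and 101 in water-loaded rats and 90.5, 92.6 and 113 in control rats.

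The fitted log2 difference of Adcy6 was -0.33 at day 1, -0.61 at day 2 and -0.32 at day 4. Over the average it was -0.42 (SE 0.19, 95% interval -0.81 to -0.03), or 0.747-fold, with an unadjusted p of 0.0354 and an adjusted p of 0.325 by edgeR. This was the smallest unadjusted p among the members, and it did not pass the correction over all genes. Across alternatives its average difference ran between -0.53 and -0.3 with the same sign throughout, and at day 4 it shrank to -0.05 with library size scaling. The difference between days was small beside its error, with an adjusted p of 1 for a test of whether the effect varied by day. Cell type markers were set beside it. The 9 principal cell markers, a sum that Aqp2 dominates, came to 13200 to 23400 CPM in water-loaded rats and 23100 to 34900 CPM in control rats at day 1. At day 2 the sums were 12400 to 22400 CPM in water-loaded rats and 24000 to 36400 CPM in control rats. At day 4 they were 14600 to 23000 CPM in water-loaded rats and 32100 to 66200 CPM in control rats. Without Aqp2 the other 8 summed to 3210 to 5080 CPM in water-loaded rats and 4770 to 5820 CPM in control rats at day 1, which overlap. The sums without Aqp2 were 3140 to 4380 CPM in water-loaded rats and 4840 to 7610 CPM in control rats at day 2, and 3880 to 4650 CPM in water-loaded rats and 6690 to 10900 CPM in control rats at day 4. Aqp3 is a large part of these sums. At day 2 Aqp3 alone held 460 to 1380 CPM in water-loaded rats and 1780 to 3750 CPM in control rats. At day 4 it held 1200 to 1590 CPM in water-loaded rats and 3630 to 7580 CPM in control rats. Of the 9 markers, those whose water-loaded values all lay under the control values numbered 2 at day 1 (Aqp3 and Npnt), 3 at day 2 (Aqp2, Aqp3 and Npnt) and 3 at day 4 (Aqp2, Aqp3 and Gata3), and the others overlapped, among them the sodium channel subunits Scnn1b and Scnn1g. The 5 type A intercalated cell markers summed to 3070 to 4380 CPM in water-loaded rats and 2400 to 2650 CPM in control rats at day 1. The type A sums overlapped at day 2, with 3720 to 4320 CPM in water-loaded rats and 2790 to 3970 CPM in control rats. They also overlapped at day 4, with 3490 to 4500 CPM in water-loaded rats and 3450 to 4040 CPM in control rats. Of the single markers, Atp6v0d2 and Foxi1 lay higher and apart at day 1. Foxi1 then held 384 to 680 CPM in water-loaded rats and 285 to 333 CPM in control rats. At day 4 Foxi1 lay apart the other way, at 507 to 705 CPM in water-loaded rats and 854 to 1090 CPM in control rats. Slc4a1, Atp6v1g3 and Aqp6 overlapped at every day. The 3 type B intercalated cell markers summed to 5180 to 6020 CPM in water-loaded rats and 5740 to 6310 CPM in control rats at day 1. At day 2 the type B sums were 4430 to 7780 and 6770 to 8210 CPM. At day 4 they were apart, at 5550 to 7230 CPM in water-loaded rats and 7830 to 8810 CPM in control rats. Hmx2 lay lower in water-loaded rats with no overlap at all 3 days. It held 1220 to 1350 CPM in water-loaded rats and 2050 to 2340 CPM in control rats at day 1. At day 2 it held 773 to 1140 CPM in water-loaded rats and 1600 to 1900 CPM in control rats. Slc26a4 lay the other way at day 1, at 2200 to 2810 CPM in water-loaded rats and 1740 to 2140 CPM in control rats. It overlapped at days 2 and 4, and Insrr overlapped at every day. The part of cell makeup in the Adcy6 values was not tested.

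Adcy3 (ENSRNOG00000003999), a cyclase best known from olfactory neurons, was over the floor of 3 counts in 16 of 20 libraries. At day 1 water-loaded rats had 0, 0 and 64 counts and control rats had 2124, 233 and 571 counts. All 3 water-loaded rats were thus under the lowest control rat, as in 5.17% of all genes at that day. The fitted log2 difference was -5.69 (SE 2.32, 95% interval -10.53 to -0.85), with an adjusted p of 0.269 by edgeR and of 0.0135 by DESeq2, which called 8.28% of all genes at that day. Without day 1 control 1, which held the 2124 counts, it was -3.87 with an adjusted p of 0.574 by edgeR.

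The direction of Adcy3 turned at day 2. Water-loaded rats had 7.86, 0.416, 1.63 and 4.75 CPM, against 0.81, 0.057, 0.0151 and 2.3 CPM in control rats. The groups overlapped, as for all 10 members at day 2, where 4.22% of all genes did not, and the fitted difference was 2.2 (SE 1.71). At day 4 water-loaded rats had 4.1, 1.07 and 3.13 CPM and control rats 5.39, 5.24 and 0.0369 CPM. Whether the effect varied by day gave an unadjusted p of 0.0399, where 8.56% of all genes passed, and an adjusted p of 0.552, with 0 of 10 members and 0% of all genes called. Within single libraries Adcy6 made up 98.5% ± 2.99 (SD, n = 20) of the summed FPKM of the cyclase pair, so the swings of Adcy3 concerned a small share of cyclase transcript.

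Gnas (ENSRNOG00000047374), the stimulatory G protein subunit that couples the V2 receptor to the cyclases, shared the top level of the 10 genes per transcript length with Prkar1a. Water-loaded rats ranged between 384 and 659 CPM with a median of 505 CPM, and control rats between 331 and 1040 CPM with a median of 465 CPM. By day the log2 difference was -0.41, -0.18 and 0.11, and over the average it was -0.16 (SE 0.21, 95% interval -0.59 to 0.27, adjusted p = 0.856 by edgeR). The ranges overlapped almost entirely, and the interval over the average leaves out a fold under 0.664 or over 1.21. Day 2 control 4, at 1040 CPM, stood far above the other day 2 control rats at 391 to 408 CPM.

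**Figure D2:**
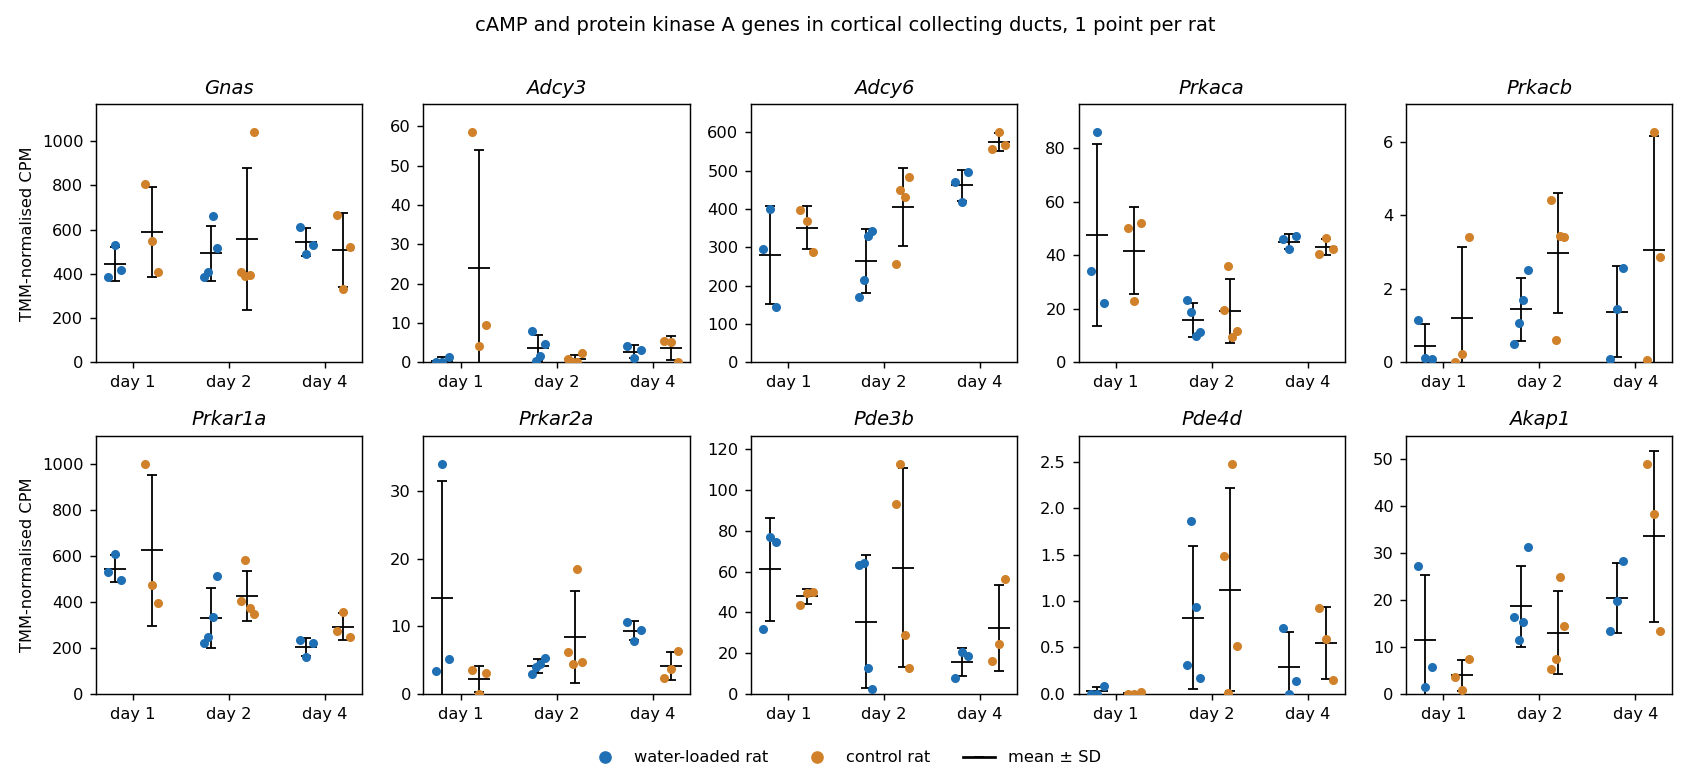
TMM-normalised CPM of each gene, 1 point per rat, by day with water-loaded rats left of control rats; bars show the group mean and SD. Adcy6 and Prkar1a lie lower in water-loaded rats at day 4 and Prkar2a higher, while Adcy3 is high in a single day 1 control rat at 58.5 CPM.

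Prkaca (ENSRNOG00000005257), the main catalytic subunit of protein kinase A, averaged 34.12 ± 22.77 CPM in water-loaded rats and 33.14 ± 15.88 CPM in controls (SD, n = 10 each). Over the average its log2 difference was -0.01 (SE 0.33, 95% interval -0.69 to 0.68, adjusted p = 1 by edgeR). At day 4 it was tight, at 45.9, 42.2 and 47.3 CPM in water-loaded rats and 40.6, 46.6 and 42.2 CPM in control rats. At day 1 it was spread out, at 34.1, 86 and 22.1 CPM in water-loaded rats and 50.1, 22.9 and 52 CPM in control rats. The 86 CPM belonged to day 1 water-loaded 2, the library with the high proximal tubule markers and a scaling factor of 0.686. In FPKM, which carry no TMM factor, Prkaca stood at 26.7 there. The other day 1 water-loaded rats had 16.9 and 10.3 FPKM, and those of day 4 had 25.2, 23.3 and 25.5 FPKM. The part of proximal tubule cells or of scaling in the 86 CPM was not tested.

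Prkacb (ENSRNOG00000004978), the second catalytic subunit, was far lower. It averaged 1.123 ± 0.9375 CPM in water-loaded rats and 2.472 ± 2.147 CPM in controls (SD, n = 10 each), and was at 0 in 1 control library. By day the log2 difference was -1.41, -1.05 and -1.15, and over the average it was -1.2 (SE 0.99, 95% interval -3.28 to 0.87, adjusted p = 0.69 by edgeR). The sign was the same at all 3 days, but the groups overlapped at each, and leaving out 1 library moved the day 1 difference between -3.46 and 2. The interval over the average spans folds between 0.103 and 1.83. Prkaca made up 87.4% ± 13.4 (SD, n = 20) of catalytic subunit FPKM, with a lowest share of 58.4% in a day 2 control rat.

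Prkar1a (ENSRNOG00000049876), the type I regulatory subunit that holds the catalytic subunits inactive until cAMP binds, was lower in water-loaded rats at days 2 and 4. At day 4 water-loaded rats had 233, 161 and 219 CPM and control rats 271, 357 and 248 CPM. At day 2 the values were 222, 248, 334 and 512 CPM in water-loaded rats and 403, 583, 371 and 346 CPM in control rats. At day 1 they were 530, 608 and 494 CPM in water-loaded rats and 1000, 475 and 395 CPM in control rats. The day 4 groups did not overlap, as in 6.73% of all genes in this direction, whereas at the earlier days they did. On the FPKM scale the day 4 groups overlapped as well, at 199, 138 and 183 in water-loaded rats and 182, 227 and 203 in control rats.

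The log2 difference of Prkar1a was -0.2 at day 1, -0.37 at day 2 and -0.51 at day 4. Over the average it was -0.36 (SE 0.19, 95% interval -0.77 to 0.05), with an unadjusted p of 0.0786 and an adjusted p of 0.445 by edgeR. Across alternatives the average ran between -0.44 and -0.19. At day 1 the sign depended on the setting: the difference was 0.01 with library size scaling and 0.23 with both day 1 libraries that stand apart set aside.

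The level of Prkar1a was also lower at later days in both treatments. Its mean was 543.9, 329.4 and 204.3 CPM at days 1, 2 and 4 in water-loaded rats and 624.9, 425.6 and 291.9 CPM in control rats. Relative to day 1, the fitted log2 difference was -0.72 at day 2 and -1.41 at day 4 in water-loaded rats (adjusted p = 0.16 for the 3 days together by edgeR), and -0.56 and -1.1 in control rats (adjusted p = 0.155). Neither passed. Among the days, 0 of 10 members were called in water-loaded rats, where 0.263% of all genes were, and 0 of 10 in control rats, where 2.45% were. At an unadjusted p under 0.05 there were 3 members among the days of water-loaded rats (Adcy6, Prkaca and Prkar1a), beside 12.1% of all genes. In control rats there were 4 (Adcy3, Prkar1a, Pde4d and Akap1), beside 22.5% of all genes. Akap1 is the member DESeq2 called there (adjusted p = 0.0381), beside 12.5% of all genes.

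Prkar2a (ENSRNOG00000020284), the type II regulatory subunit that binds anchoring proteins, was higher in water-loaded rats at days 1 and 4 and lower at day 2. At day 4 water-loaded rats had 10.7, 7.83 and 9.53 CPM, against 2.35, 3.76 and 6.34 CPM in control rats. All 3 water-loaded rats were above the highest control rat, as in 7.93% of all genes at that day. The FPKM groups were apart too, at 6.72, 4.95 and 5.87 in water-loaded rats and 1.17, 1.76 and 3.83 in control rats. The log2 difference at day 4 was 1.17 (SE 1.17, 95% interval -1.27 to 3.61, adjusted p = 1 by edgeR); the fit shares 1 estimate of spread over all 6 groups.

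At day 1 Prkar2a stood at 3.42, 34.1 and 5.14 CPM in water-loaded rats and 3.5, 0.0366 and 3.12 CPM in control rats, a log2 difference of 2.68 (SE 1.22, unadjusted p = 0.0414, adjusted p = 0.305 by edgeR). The 34.1 CPM again belonged to day 1 water-loaded 2, with 5840 CPM of proximal tubule markers. Without that library the difference was 0.95 with an adjusted p of 0.836. Over the average Prkar2a differed by 0.94 (SE 0.64, 95% interval -0.4 to 2.28, adjusted p = 0.59). At day 2 water-loaded rats had 2.88, 3.92, 4.45 and 5.25 CPM and control rats 6.18, 4.36, 18.5 and 4.72 CPM.

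Because the kinase is a complex of both kinds of subunit, catalytic FPKM (Prkaca plus Prkacb) was divided by regulatory FPKM (Prkar1a plus Prkar2a) within each library. At day 4 the ratio was 0.123, 0.174 and 0.149 in water-loaded rats, against 0.0961, 0.106 and 0.122 in control rats. At day 1 it averaged 0.0535 ± 0.0306 in water-loaded rats and 0.053 ± 0.0366 in control rats (SD, n = 3 each). At day 2 it averaged 0.0424 ± 0.0237 in water-loaded rats and 0.0369 ± 0.00751 in control rats (SD, n = 4 each). Day 4 libraries of both treatments lay above every day 1 and day 2 library, the lowest at 0.0961 against 0.0953 in a day 1 control rat. At day 4 the treatments were apart by a narrow margin of 0.123 against 0.122. By CPM, 7.93% of all single genes tested lay apart in this direction at day 4, and no such share was computed for ratios. Over the 3 days the log2 ratio was 0.19 higher in water-loaded rats, which is smaller than the pooled SD within groups of 0.63. That SD describes single libraries and is not the error of the mean difference, which was not tested. At day 4 the log2 ratio averaged -2.76 ± 0.248 in water-loaded rats and -3.22 ± 0.174 in control rats (SD, n = 3 each). Prkar1a made up 98.5% ± 1.26 (SD, n = 20) of regulatory FPKM.

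**Figure D3:**
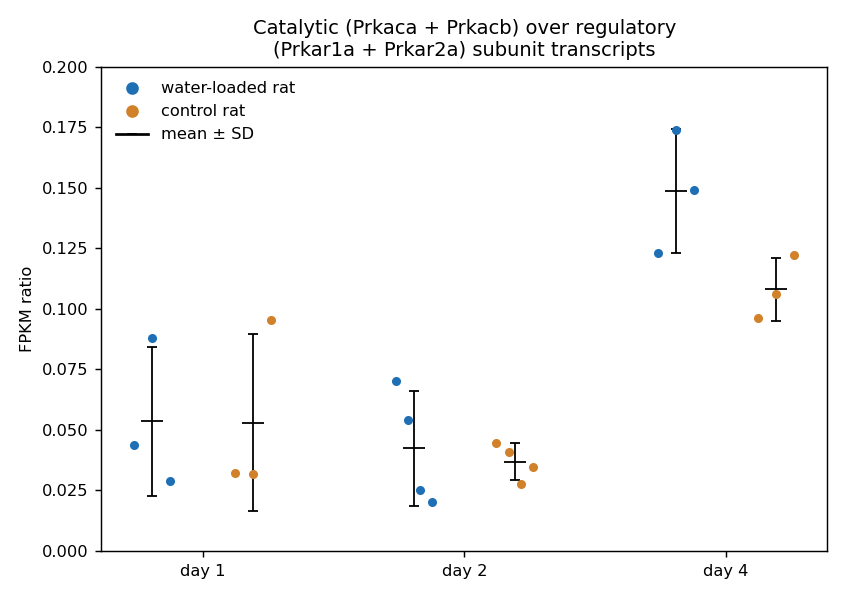
Ratio of catalytic to regulatory subunit FPKM in each library, by day with water-loaded rats left of control rats; bars show the group mean and SD. The day 4 libraries lie highest, from 0.123 to 0.174 in water-loaded rats and 0.0961 to 0.122 in control rats.

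Pde3b (ENSRNOG00000011417), a phosphodiesterase that cGMP inhibits, was lower in water-loaded rats at days 2 and 4. At day 4 water-loaded rats had 7.76, 20.8 and 18.6 CPM and control rats 16.1, 24.5 and 56.4 CPM. At day 1 the values were 31.8, 77.2 and 74.3 CPM in water-loaded rats and 43.8, 49.6 and 50.2 CPM in control rats. The groups overlapped at both days. By day the log2 difference was 0.35, -0.8 and -1.04, and over the average it was -0.5 (SE 0.5, 95% interval -1.54 to 0.54, adjusted p = 0.771 by edgeR). With a covariate for how many genes were detected, the average became 0.18 and day 4 became 0.07, so the sign of Pde3b depended on that setting.

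At day 2 the spread of Pde3b followed the replicate number in the labels. Libraries numbered 1 and 2 had 63.1 and 64 CPM in water-loaded rats and 93.2 and 113 CPM in control rats. Libraries numbered 3 and 4 had 12.6 and 2.38 CPM in water-loaded rats and 28.9 and 12.8 CPM in control rats. Every library numbered 1 or 2 thus lay above every library numbered 3 or 4. Prkaca was split the same way, at 23.4 and 19 CPM in water-loaded and 19.5 and 36 CPM in control libraries with the lower numbers, and 9.82 and 11.4 CPM in water-loaded and 9.62 and 11.9 CPM in control libraries with the higher numbers. These were 2 of 10 members, and 13.4% of all genes tested were apart by number in either direction. The labels name no batch, and whether the numbers mark one was not tested.

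Set beside each other by number, water-loaded rats were below control rats in 4 of 4 day 2 pairs for Pde3b, by -0.56, -0.82, -1.19 and -2.41 on the log2 scale. Adcy6 was also lower in 4 of 4 pairs, by -0.58, -1.06, -0.39 and -0.5. Of all genes tested, 7.95% were lower in all 4 pairs. Adcy3 was higher in 4 of 4 pairs, at 3.22, 2.26, 4.98 and 1.03, as were 9.21% of all genes. These pairs follow the numbers alone, and whether the numbers pair rats was not tested. With the replicate number as a block, 0 members were called in any comparison. The blocked day 2 difference was -1.24 for Pde3b (unadjusted p = 0.023, adjusted p = 1) and -0.63 for Adcy6 (unadjusted p = 0.0176, adjusted p = 1).

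**Figure D4:**
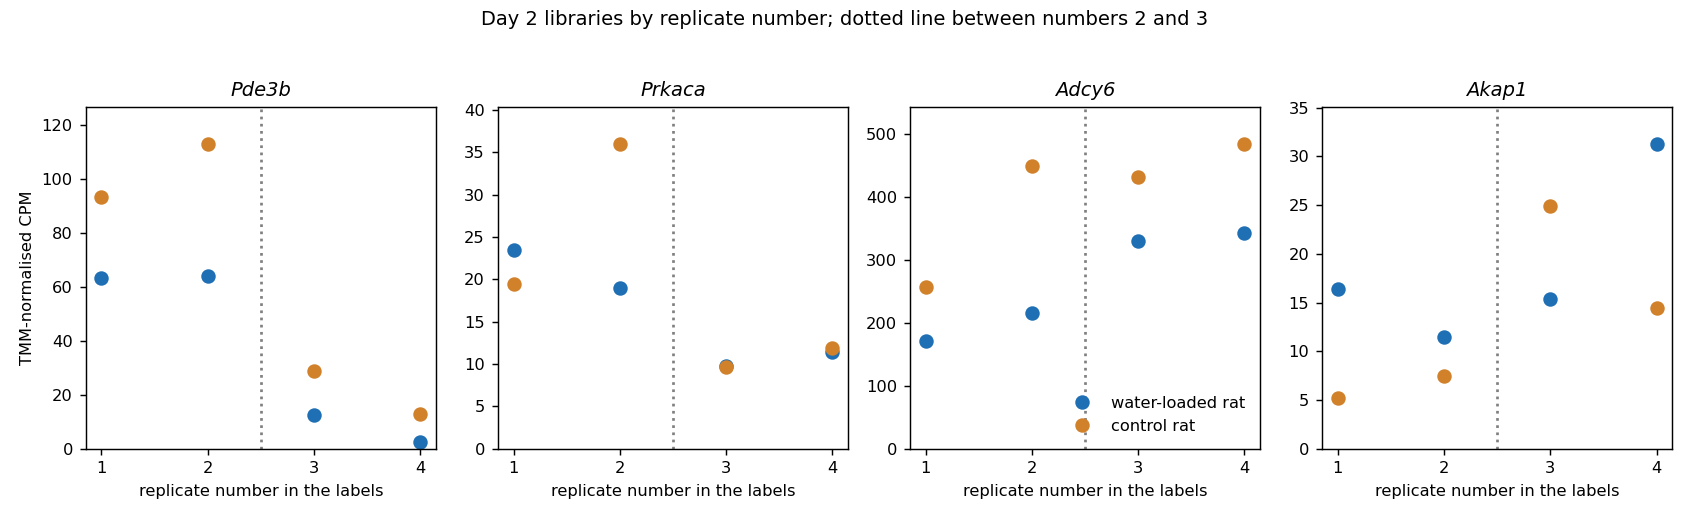
TMM-normalised CPM of Pde3b, Prkaca, Adcy6 and Akap1 in the day 2 libraries against the replicate number of the labels, with the dotted line between numbers 2 and 3. Pde3b and Prkaca lie lower right of the line than left of it in both treatments, and for Adcy6 the water-loaded point lies below the control point at all 4 numbers.

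Pde4d (ENSRNOG00000042536), a cAMP-specific phosphodiesterase, was barely detected. It was over the floor of 3 counts in 13 of 20 libraries and at 0 in 5. At day 1 it had 0, 0 and 4 counts in water-loaded rats and 0, 0 and 1 counts in control rats. No fold is given here for that day. At day 2 it had 0.308, 1.86, 0.939 and 0.173 CPM in water-loaded rats and 1.48, 0.0142, 2.48 and 0.519 CPM in control rats (log2 difference -0.45, SE 1.64, adjusted p = 1 by edgeR). The 95% interval of the day 2 difference, -3.89 to 2.99, spans 0 widely. Pde3b made up 95.4% ± 5.79 (SD, n = 20) of the FPKM of the pair.

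Akap1 (ENSRNOG00000002373), which anchors protein kinase A at the outer mitochondrial membrane, had no steady direction with the water load. Water-loaded rats had 27.3, 1.56 and 5.64 CPM at day 1, against 3.61, 0.861 and 7.51 CPM in control rats. The day 1 difference of 1.53 (SE 0.96) rested on water-loaded rat 1, and without it stood at -0.15. At day 4 the values were 13.4, 19.7 and 28.3 CPM in water-loaded rats and 49.1, 38.3 and 13.5 CPM in control rats, a difference of -0.72 (SE 0.94). Over the average it was 0.44 (SE 0.52, 95% interval -0.64 to 1.53, adjusted p = 0.825 by edgeR). In control rats its mean was 3.993, 13.01 and 33.63 CPM at days 1, 2 and 4. Relative to day 1, their fitted log2 difference was 1.7 at day 2 and 3.07 at day 4 (adjusted p = 0.155 by edgeR). Means in water-loaded rats were 11.51, 18.65 and 20.48 CPM, with fitted differences of 0.7 and 0.83 (adjusted p = 0.957 by edgeR).

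Per transcript length, the members fell into tiers. Gnas and Prkar1a were highest, with mean FPKM over the 20 libraries of 277 and 269. Gnas was above Prkar1a in 9 of 20 libraries, and their order turned with the day. At day 1 mean FPKM was 214.1 for Gnas and 352.9 for Prkar1a in water-loaded rats, and 255.4 and 350.2 in control rats. At day 4 it was 347.8 for Gnas and 173.3 for Prkar1a in water-loaded rats, and 272 and 204 in control rats. Adcy6 followed at 66.3 FPKM, below Prkar1a and above Prkaca in all 20 libraries. Prkaca stood at 14.9, Pde3b at 9.62 and Akap1 at 6.75 FPKM, and neighbours in this stretch changed places often, with Prkaca above Pde3b in 13 and Pde3b above Akap1 in 10 of 20 libraries. Prkar2a at 3.55, Prkacb at 1.67, Adcy3 at 0.799 and Pde4d at 0.258 FPKM closed the order. The spread between rats grew down this order: the biological coefficient of variation was 0.35 for Gnas, 0.34 for Prkar1a and 0.32 for Adcy6, and 1.32, 1.45 and 1.42 for Prkacb, Adcy3 and Pde4d. The median over all genes tested was 0.89.

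**Figure D5:**
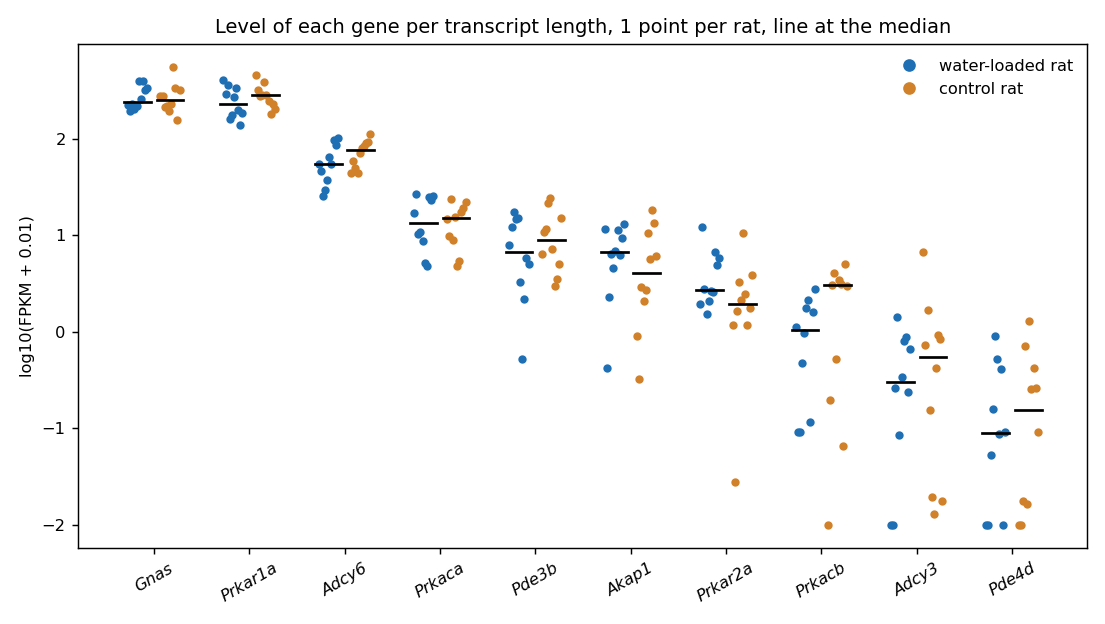
Level of each gene on a log10(FPKM + 0.01) scale, 1 point per rat, with water-loaded rats left of control rats and a line at the median. Gnas and Prkar1a lie together at the top and Adcy6 stands alone below them, and the scatter widens towards Pde4d.

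The genes whose pattern over the 20 libraries was most like that of Adcy6, by the root mean square difference of centred log2 CPM, were Trmt112 (0.338), Pfn1 (0.346) and Smarcc2 (0.349), against a median of 1.15 over 7317 genes. For Prkar1a they were Ddx5 (0.307), Atp6v1c2 (0.317) and Chmp6 (0.323), against a median of 1.17. The SD of log2 CPM over the libraries was 0.564 for Adcy6 and 0.638 for Prkar1a. A gene that did not vary at all would score near that SD, which is also under the median. The root mean square differences describe likeness across libraries that share treatment, day and depth.

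The promoters were read for the cAMP response element (CRE), the site of the CREB factors that protein kinase A phosphorylates, since many genes that cAMP induces carry it. RefSeq windows of GRCr8, from 250 bases before to 50 bases after the start, were found for 6 of the 10 members with 12 promoters in all: Gnas, Prkaca, Prkacb, Prkar1a, Pde4d and Akap1. The full element TGACGTCA, searched on both strands, was in 0 of the 12 and in 1.83% of 33469 rat promoters of the same length. Its core TGACG, on either strand and counted also inside full elements, was in 5 of the 12 and in 21.2% of all. Below are the matches upstream of Prkaca, at -193 and -79 from its start on the minus strand of chromosome 19, and of a Pde4d promoter, at -231 and -194 on the plus strand of chromosome 2, chosen as the members with matches well upstream of the start; capitals mark the core (CGTCA where it lies on the other strand).
Prkaca at -193, chr19:41083353-41083407: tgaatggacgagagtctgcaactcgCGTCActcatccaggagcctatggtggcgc
Prkaca at -79, chr19:41083239-41083293: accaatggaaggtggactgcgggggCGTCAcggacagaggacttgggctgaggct
Pde4d at -231, chr2:42592499-42592547: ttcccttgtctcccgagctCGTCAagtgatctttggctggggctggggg
Pde4d at -194, chr2:42592530-42592584: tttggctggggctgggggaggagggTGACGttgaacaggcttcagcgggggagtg
A match describes letters and not a bound site. The other cores lay at -19 in another Pde4d promoter, at 6 in a Gnas promoter and at 25 in the Prkacb promoter.

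Of 86 further genes listed for the route, 85 were found in the table and 71 were tested. None was called for the water load at any day or over the average, where 23 genes or 0.159% of all tested were called. By edgeR 13 of the 71 had an unadjusted p under 0.05 over the average, where 13.5% of all genes did. There 25 were higher and 46 lower with the water load. Their median log2 difference was -0.32, and the same with the 8 genes that were at 0 throughout a group set to the floor of 3 counts per library. With library size scaling the split was 30 higher and 41 lower with a median of -0.19, where all genes stood at 0.14.

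Among the Gs-coupled receptors, 3 of 10 tested were higher and 7 lower over the average (median log2 difference -0.39). Avpr2, the V2 receptor itself, averaged 565.7 ± 147.9 CPM in water-loaded rats and 695.5 ± 219.2 CPM in controls (SD, n = 10 each; log2 difference -0.28, 95% interval -0.66 to 0.11, adjusted p = 0.576 by edgeR). Gcgr, the glucagon receptor, stood at 144.5 ± 34.13 CPM in water-loaded rats and 205.7 ± 103.5 CPM in controls (-0.49, adjusted p = 0.35). Adora2b, an adenosine receptor, reached 2.26 CPM in a water-loaded rat and at most 0.519 CPM in a control rat, with medians at or under the floor. Of 4 Gi-coupled receptors, which lower cAMP, 1 was higher and 3 were lower (median -0.35), among them Ptger3, a prostaglandin E2 receptor, at 59.38 ± 59.78 CPM in water-loaded rats and 88.02 ± 67.71 CPM in controls (-0.6, adjusted p = 0.497). Adora1, an adenosine receptor of this kind, had a median of 0.951 CPM in water-loaded rats and 4.4 CPM in control rats (adjusted p = 0.485).

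Of 4 other G alpha subunits, 1 was higher and 3 lower over the average (median -0.17), with Gnai2 at -0.31 (adjusted p = 0.721) and Gnai1 at -1.09 (adjusted p = 0.529). Gnai2 was the single gene of the 71 that passed among the days of control rats, at 225.1 CPM at day 1, 57.63 CPM at day 2 and 96.43 CPM at day 4 (adjusted p = 0.048 by edgeR). That call was kept in 9 of 33 alternatives, and without day 1 control 1, which had 440 CPM, the adjusted p was 0.27. Among 5 other cyclases tested, 3 were higher and 2 lower (median 0.2). Their mean FPKM ran from 0.0446 for Adcy7 to 3.12 for Adcy5, which reached 19.5 in 1 library, against a mean of 66.3 for Adcy6. Adcy7 reached 1.29 CPM in a water-loaded rat and at most 0.0164 CPM in a control rat. Adcy10, the bicarbonate-sensitive soluble cyclase, was at 0 in 6 of 10 water-loaded and 3 of 10 control libraries.

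Downstream of cAMP, Rapgef3 (Epac1), a cAMP-gated exchange factor that acts beside protein kinase A, averaged 278.2 ± 95.27 CPM in water-loaded rats and 397.8 ± 160.5 CPM in controls (SD, n = 10 each; log2 difference -0.41, 95% interval -0.8 to -0.02, adjusted p = 0.345 by edgeR). Its relative Rapgef4 differed by -0.18 (adjusted p = 1). Pkig, a peptide inhibitor of the catalytic subunits, averaged 58.05 ± 28.84 CPM in water-loaded rats and 92.03 ± 74.95 CPM in controls (-0.59, adjusted p = 0.365), and Pkia, its rarer relative, was at 0 in 4 water-loaded and no control libraries (adjusted p = 0.296). Prkar1b, a regulatory subunit, had a median of 1.29 CPM in water-loaded rats and 2.11 CPM in control rats (adjusted p = 0.705).

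Of 10 other cAMP phosphodiesterases tested, 4 were higher and 6 lower (median -0.07). Pde7b had a median of 2.34 CPM in water-loaded rats and 8.81 CPM in control rats (-1.35, adjusted p = 0.388), and Pde7a was at 0 in 4 water-loaded and 8 control libraries of 10 each (adjusted p = 0.18). By mean FPKM, Pde8a (20.1), Pde4c (18.4) and Pde1a (12) all stood above Pde3b at 9.62. Of 8 other anchoring proteins, 4 were higher and 4 lower (median -0.03). Akap7 had a median of 0.0508 CPM in water-loaded rats and of 0 in control rats (adjusted p = 0.148), and Akap12 one of 0.134 CPM in water-loaded rats and 0.451 CPM in control rats (adjusted p = 0.56). Of 6 receptor kinases and arrestins, 3 were higher and 3 lower (median 0.17), with Grk2 at 18.05 ± 7.34 CPM in water-loaded rats and 26.61 ± 13.13 CPM in controls (adjusted p = 0.547) and Arrb1 at a median of 1.4 CPM in water-loaded rats and 0.379 CPM in control rats (adjusted p = 0.299). With library size scaling the split became 5 and 5 for the phosphodiesterases, 5 higher and 3 lower for the anchoring proteins, 4 and 2 for the kinases and arrestins, and 2 and 2 for the Gi-coupled receptors and for the G alpha subunits.

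Among 6 CREB factors and coactivators, 4 were higher and 2 lower over the average (median 0.36). The 2 lower were the ones named by p: Crebbp, a coactivator with acetyltransferase activity, at 34.84 ± 17.72 CPM in water-loaded rats and 54.39 ± 21.73 CPM in controls (-0.63, adjusted p = 0.363), and Crtc2, a CREB coactivator that cAMP releases into the nucleus, at 6.364 ± 3.925 CPM in water-loaded rats and 13.03 ± 10.19 CPM in controls (-1.06, adjusted p = 0.477).

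Genes that cAMP commonly induces were mostly lower. Of 12 tested, 0 were higher and 12 lower with the water load at day 1 (median log2 difference -1.41), 1 higher and 11 lower at day 2 (-0.62), 3 higher and 9 lower at day 4 (-0.37), and 1 higher and 11 lower over the average (-0.8, against 0.01 for all genes). None passed the test at any of these, and 2 had an unadjusted p under 0.05 over the average, where 13.5% of all genes did. Without day 1 control 1, the day 1 split was 3 higher and 9 lower with a median of -0.67, and with library size scaling day 4 was 6 and 6 with a median of -0.01, where all genes stood at 0.23. The list also moved without the water load. From day 1 to day 2 in control rats, 0 were higher and 12 lower (median -1.3, against 0.13 for all genes). In water-loaded rats that step had 4 higher and 8 lower (median -0.63, against 0.09). Nr4a1, an orphan nuclear receptor of the immediate-early class, averaged 80.84 ± 55.38 CPM in water-loaded rats and 166.1 ± 149.1 CPM in controls (SD, n = 10 each; -1.01, 95% interval -1.82 to -0.19, adjusted p = 0.252 by edgeR). Junb, an AP-1 factor, averaged 297.7 ± 221.6 CPM in water-loaded rats and 581.2 ± 576.2 CPM in controls (-0.83, adjusted p = 0.294).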

How the data were processed

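Tubules were lysed and their RNA was reverse transcribed and amplified with a single-cell method, per the labels' protocols, so reads are not independent molecules and floors cover counting error only. The authors deposited whole-number read counts per Ensembl gene, for which the submitters' processing notes name Trimmomatic 0.32, STAR 2.4.0.1, SAMtools, HTSeq and the build rn6; the annotation and any use of strand are not given here. The deposited FPKM values were the same counts divided by library total and length: in 13538 genes with at least 50 counts, 0 had an implied length that varied by over 0.1%. Between 31.45% and 35.61% of counts stood in 5 summary lines without a gene, which were left out. With reads on more than 1 place not counted, genes with close copies are uncertain.

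The main test was edgeR 4.0.16 under R 4.3.3: filterByExpr, TMM factors, and a quasi-likelihood fit of 6 group means over all 20 libraries with robust dispersions. Water load minus control was tested at each day and over the average of days, and F tests asked whether the effect or the level varied by day. Adjusted p is Benjamini-Hochberg over the 14472 genes tested, with a threshold of 0.05, and intervals are 95%. Folds come from the fit and need not equal the ratio of means. On simulated counts the test called 26% of genes changed 2-fold and 92% of genes changed 8-fold over the average, and 9 of 14059 unchanged genes. The changed genes were drawn from those with a mean of at least 10 CPM. Adcy3, Prkacb, Prkar2a and Pde4d averaged less, so these shares do not cover them. Alternatives used DESeq2 1.42.0, limma 3.58.1, other scalings, filters, covariates, log2(FPKM + 1) or log2(FPKM + 0.1), and each library left out.

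Same-numbered libraries of the 2 treatments correlated in their deviations from the group means at 0.148, 0.147, 0.154 and 0.236 at day 2. At days 1 and 4 they correlated at -0.091 to 0.06. The highest correlation of each day 2 water-loaded library with a control library of another number was 0.123, 0.11, 0.204 and 0.188. For number 3 this was above the same-numbered value. The numbers were set beside each other at day 2 as a hint from the data. Whether they pair rats, or follow only the split of numbers 1 and 2 from 3 and 4, was not tested.

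The members, lists and tests were chosen with earlier results of these data known. Named genes were the 10 members, Aqp2 and Aqp3, Avpr2, and the 2 genes of each list with the smallest p over the average; Pde8a, Pde4c and Pde1a were named after their levels were seen. Grk2 was matched through an older symbol. Genes like a member were sought among those with a mean of at least 10 CPM, on log2 CPM with a prior count of 2. Lists of genes at 0 throughout a group used a floor of 3 counts per library. Gene groups under each setting, and the principal cell sum without Aqp2, were counted after the data were seen.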

Additional observations from a re-analysis of the deposited data

Results flagged for a closer look

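Within the groups of 4 rats at day 2, 20 sets of 4 values were searched for a rat far from its group, by Dixon's 95% critical value for the gap to the nearest neighbour over the range. Chance gives about 1 such set in 20, and 2 were found, both in control rats. For Gnas, control rat 4 stood at 1040 CPM, while the other day 2 control rats were at 391 to 408 CPM. For Prkar2a, control rat 3 stood at 18.5 CPM, while the others were at 4.36 to 6.18 CPM.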

How the results depend on the processing

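No member was called under any alternative but DESeq2, which called 1 at day 1 (Adcy3, adjusted p = 0.0135) and 1 among the days of control rats (Akap1, adjusted p = 0.0381). Of 2367 member values under alternatives, 2362 kept their side of the threshold and, where the difference exceeded its standard error, their sign. As no member was called in the main test, a kept side meant staying uncalled. Among differences beyond their standard error, the sign turned for Pde3b with a covariate for how many genes were detected (0.07 at day 4 and 0.18 over the average). It also turned for Akap1 at day 1 without water-loaded rat 1 (-0.15, where leaving out any 1 library gave -0.15 to 2.36). Smaller differences were not counted, and several changed sign. Examples are Gnas at day 2 (-0.35 to 0.3), Prkaca at day 1 (-0.57 to 0.52) and Akap1 over the average (-0.11 to 0.72). DESeq2 gave no adjusted p for Pde4d among the days of water-loaded rats, and the filter at 5 CPM left out Adcy3, Prkacb and Pde4d. The cause of these changes was not tested.

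The counts over all genes moved more. DESeq2 called 1132, 77 and 319 genes at days 1, 2 and 4, 714 over the average, 183 for the difference between days, and 517 and 1586 among the days of water-loaded and control rats. limma-voom called 2 and 19 at days 1 and 2, 59 over the average, 1 for the difference and 95 among water-loaded days. limma on log2(FPKM + 1) called 3 at days 1 and 2 and 5 at day 4, with 119 among water-loaded days. On log2(FPKM + 0.1) it called 1 at days 1 and 2, 3 at day 4, 13 over the average, 1 for the difference and 121 among water-loaded days. On log2(FPKM + 1) without a filter it called 2 at days 1 and 2, 9 at day 4, 13 over the average, 1 for the difference and 145 among water-loaded days. Library size scaling called 12 over the average and 24 among water-loaded days. The 5 CPM filter called 85 and 559 among water-loaded and control days. The replicate block called 5 genes over the average, proximal tubule markers as a covariate 14, with 9 among water-loaded days, and the number of detected genes 4, with 0. A term for day 2 libraries numbered 3 and 4 called 155 and 579 among water-loaded and control days, and setting aside both day 1 libraries that stand apart called 11 and 185.

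Leaving out 1 library gave 0 to 9 genes at day 1, 0 at days 2 and 4, 6 to 37 over the average, 0 to 3 for the difference, and 5 to 79 and 43 to 563 among water-loaded and control days. It moved the difference in the log2 subunit ratio between 0.04 and 0.36, and the pairs of gene and day higher in water-loaded rats by mean FPKM, 12 of 30 with every library, between 10 and 13. The replicate block called 0 members and, apart from the 5 genes above, moved no count of calls for the water load by over 1.5 times. Pde4d, Adcy3 and Prkacb were over 3 counts in 13, 16 and 18 of 20 libraries, and their biological coefficients of variation were 1.42, 1.45 and 1.32.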
